A study of Homo sapiens with 4 samples.

Results

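YTHDF1 binding was examined over 8 interferon regulatory factors (IRFs) and 1 of their partners, taken by name: IRF1, IRF2, IRF3, IRF4, IRF5, IRF7, IRF8, IRF9 and IRF2BP2. Of these 9 genes, 5 had rows in the table of YTHDF1 binding, with 21 windows among the 26819 windows and 7550 genes listed in all, and 4 had none. IRFs are transcription factors that bind the promoters of interferon genes and of the genes that interferons switch on. IRF1 is induced by interferon-γ (IFN-γ) and drives antigen presentation genes. IRF2 competes with it for the same promoters, and IRF2BP2 is a corepressor that partners IRF2 and is not itself an IRF. IRF9 is the DNA-binding subunit of the complex formed after type I interferon, IRF3 and IRF7 act in the sensing of viral nucleic acids, and IRF4, IRF5 and IRF8 are best known in lymphoid and myeloid cells. Messenger RNAs that carry N6-methyladenosine (m6A) are bound in the cytoplasm by readers such as YTHDF1, which can change how long an mRNA lasts and how well it is translated.

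The data come from RNA immunoprecipitation sequencing (RIP-seq) in SNU638, an established human gastric cancer cell line. The series held 4 libraries, 2 of IP-YTHDF1 and 2 of Input, all from cells with overexpressed YTHDF1, kept in medium without serum for 24 h and given IFN-γ at 10 ng/ml for 24 h. Per the study's methods the overexpressed protein carried a FLAG tag. Cells without IFN-γ or without overexpression were not analysed here, so the values describe binding of an overexpressed protein under IFN-γ and no change caused by it.

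Each row is a window of 50 bp within a gene, with a signal value, a p-value and a q-value. These are read here as values for IP-YTHDF1 against Input, which the column names do not state. The values name no library, so whether each of them draws on every library is not known. The paper describes its protein-coding peaks as a union of replicates. If the listed windows are that union, a window need not have been found in every replicate. The depth per library is unknown, no spread between replicates can be given, and no difference between genes below was tested. The sources used here give no scale for the signal value. Windows are ordered by it below, and means, differences and distances of signal values are descriptions in these unstated units, not folds. A gene without a row may be unbound, too weakly expressed to be tested, or not expressed, and these cannot be told apart. The sequences of the windows are not printed, because no genome was used here.

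IRF1, IRF3, IRF7, IRF9 and IRF2BP2 were listed, which is 5 of 9 members or 55.6% (Wilson 95% interval 26.7% to 81.1%, counting error only). Among the 20052 protein-coding genes of the RefSeq annotation, 31.8% had a listed peak, a share that lies inside this interval. The members without a row were IRF2, the antagonist of IRF1, and IRF4, IRF5 and IRF8. The IRF2 partner IRF2BP2 had the most windows of all members. Each of the 5 listed members had at least 3 windows, and 53.5% of all listed coding genes did.

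**Figure D1:**
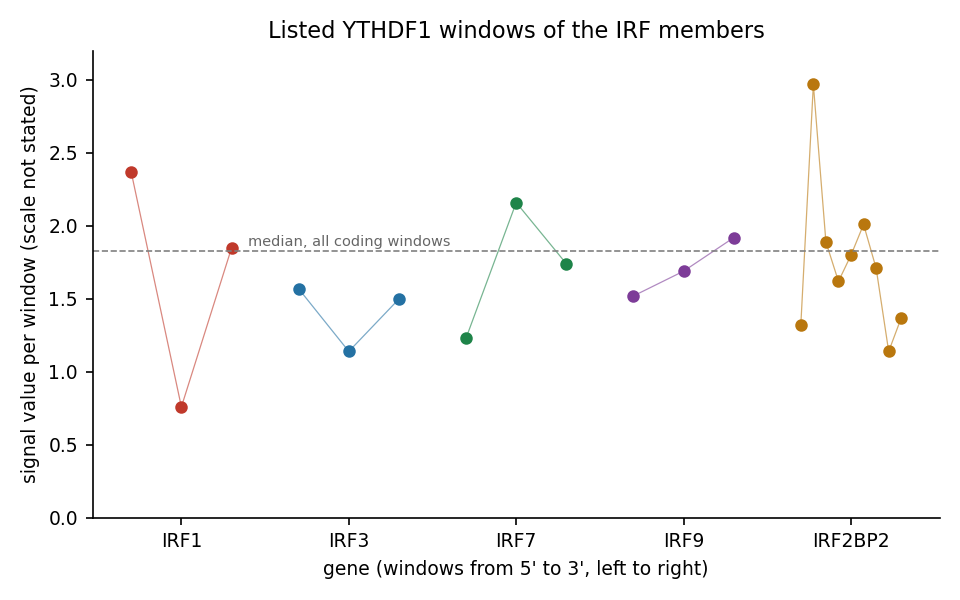
Signal value (vertical axis, scale not stated) of every listed window of the 5 listed members, ordered from 5′ to 3′ within each gene; each point is 1 window and the dashed line is the median of all coding windows, 1.83. IRF1 spans the range from 0.76 to 2.37 within 3 windows, and IRF2BP2 reaches the highest value, 2.97.

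IRF1 (ENSG00000125347, minus strand of chromosome 5, GRCh38) had 3 windows. In the direction of the transcript, the first, at positions 132487060 to 132487109, had a signal value of 2.37. The second, at 132487010 to 132487059, had 0.76. The third, at 132486960 to 132487009, had 1.85. The first window was thus stronger than 83.2% of all listed windows, the third was near the middle at 50.3%, and the second was stronger than 0.116%. The windows began 3664 bp from the 5′ end of the RefSeq gene, which is 9165 bp long with introns, or 40% of the way along it. Whether they lie in coding or untranslated exons was not analysed here.

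The first IRF1 window combined a moderate signal with a very small p-value. Its p-value is listed as 0, which is below the smallest printed value of 1.11e-16. Among coding windows, 1.77% had a p-value listed as 0, and this was 1 of the 21 windows of the members. A signal value of 2.37 seldom came with so small a p-value. Of 1095 coding windows with signal values within 0.05 of it, 11 (1.00%) had a p-value listed as 0, and the median p-value was 4.72e-07. The strongest window of IRF2BP2 had a higher signal value, 2.97, and a larger p-value, 4.62e-13. The number of reads behind a window is not in the table, so its part in these p-values was not tested.

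IRF7, the factor that amplifies type I interferon production, also had 3 windows (ENSG00000185507, minus strand of chromosome 11). From 5′ to 3′ their signal values were 1.23 at positions 612704 to 612753, 2.16 at 612654 to 612703 and 1.74 at 612604 to 612653. The middle window was the strongest, the reverse of IRF1. These windows lay at the very end of the gene, the last of them 49 bp from the 3′ end of the RefSeq interval. Only the middle one had a q-value under 0.001, at 1.19e-05, and both outer ones shared a q-value of 0.0444.

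IRF9, which joins the signal transducers of type I interferon (ENSG00000213928, plus strand of chromosome 14), had 3 windows in 2 places. A pair of touching windows had signal values of 1.52 at 24162216 to 24162265 and 1.69 at 24162266 to 24162315. After a gap of 700 bp, the window at 24163016 to 24163065 had 1.92 and the lowest q-value of the 3, 0.000127. The 3 values rose along the gene and differed less than in any other listed member, with a range from 1.52 to 1.92.

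IRF3, the factor that is held in the cytoplasm until viral RNA or DNA is sensed (ENSG00000126456, minus strand of chromosome 19), was the weakest listed member. Its window nearest the 5′ end, at 49664770 to 49664819, had a signal value of 1.57. The other two touched each other 2650 bp farther on, with 1.14 at 49662070 to 49662119 and 1.5 at 49662020 to 49662069. The lowest q-value belonged to the last of these, 0.000185, and not to the window with the highest signal value. The strongest IRF3 window exceeded the strongest window of 5.23% of listed coding genes.

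IRF2BP2, the corepressor (ENSG00000168264, minus strand of chromosome 1), had 9 windows between positions 234608470 and 234609419. The 4 windows nearest the 5′ end had signal values of 1.32, 2.97, 1.89 and 1.62. The next pair, 350 bp farther on, had 1.80 and 2.01, and the last 3 had 1.71, 1.14 and 1.37. The highest of these lay at 234609270 to 234609319, 859 bp from the 5′ end of a RefSeq gene 5910 bp long, and exceeded 96.5% of all listed windows. The listed windows lay in the 5′ part of the gene, from 12.8% to 28.1% of its length, in 5 separate regions. Some gaps between these regions were only 50 bp, so a passing window that is not listed could join them. Because the list stops at 9 windows, the placement in the 5′ part describes the listed windows only. Passing windows elsewhere in the gene could be missing from it. The window at 234608670 to 234608719, with a middling signal value of 2.01, had a p-value of 6.59e-13, nearly as small as that of the strongest.

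The list for IRF2BP2 is incomplete. No gene has more than 9 listed windows, and 12.8% of listed coding genes sit at that limit, as did IRF2BP2 alone among the members. The q-value of each window gives its position in the order of p-values within the gene, because q is p times the number of windows tested divided by that position, or the q-value of a later position where that is smaller. With 63 tested windows, which is a lower bound, the 9 listed windows took the positions 1 to 5 and 7 to 10. Position 6 would then belong to an unlisted window that met the limit, with a p-value between 0.000171 and 0.00025. A larger number of tested windows would raise the positions and leave more windows unlisted. IRF2BP2 thus had at least 10 passing windows, and where any unlisted one lies was not determined. No position was skipped in the members with 3 windows.

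By number of windows, IRF1 did not differ from the other IRFs in the list, since IRF1, IRF3, IRF7 and IRF9 had 3 each, the median of all listed coding genes. By adjacency, IRF1 and IRF7 formed 1 unbroken region of 150 bp, whereas IRF3 and IRF9 formed 2 regions. The listed windows of IRF2BP2, whose list is incomplete, formed 5. So 2 of the 4 members with 3 windows had them all in a row, and 13.6% of the 855 coding genes with 3 windows did. Windows on both sides of an intron do not touch in the genome, so 2 regions may be neighbours in the mRNA. The single region of IRF1 rested on its weakest window, which had a q-value of 0.0432, near the limit of the table. At a q-value of at most 0.001, IRF1 kept its 2 outer windows as 2 regions, and IRF7, IRF9 and IRF3 kept 1 window each. Of the 21 windows of the members, 9 (42.9%) met that limit, next to 43.6% of coding windows.

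By signal, the place of IRF1 depended on the summary. Its strongest window (2.37) ranked second of the 5 listed members, after IRF2BP2 (2.97) and before IRF7 (2.16), IRF9 (1.92) and IRF3 (1.57). The mean over its windows, 1.66 ± 0.82 (SD over 3 windows of 1 gene, not over replicates), ranked below all of them except IRF3. IRF2BP2 had a mean of 1.76 ± 0.54 over its listed windows, IRF7 1.71 ± 0.47, IRF9 1.71 ± 0.20 and IRF3 1.40 ± 0.23. By the median over windows IRF1 ranked first, at 1.85 against 1.5 to 1.74 in the others. The difference in mean between IRF1 and each of the others was smaller than the spread over the windows of IRF1. That spread describes the profile along the gene and is not an error of the mean, so it does not judge these differences. Of the 18 windows of the other members, 1 lay above the strongest IRF1 window, 17 lay between the strongest and the weakest, and 0 lay below the weakest.

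**Figure D2:**
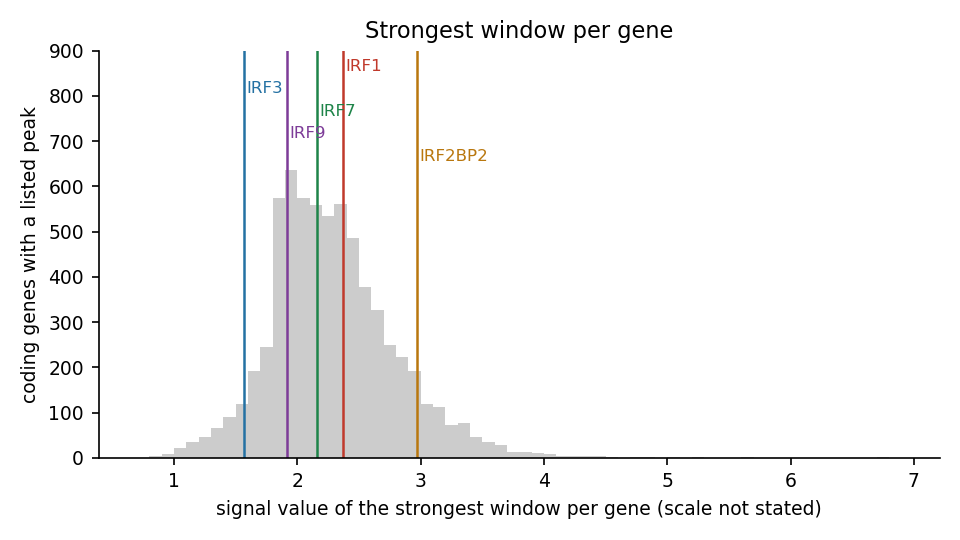
Number of listed coding genes (vertical axis) by the signal value of their strongest window (horizontal axis, scale not stated, bins 0.1 wide); coloured lines mark the 5 listed members. IRF1 at 2.37 lies just right of the centre, IRF2BP2 at 2.97 in the upper part, and IRF3 at 1.57 in the lower tail.

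Against all 6679 listed coding genes, the strongest window had a median of 2.23, with 1.94 at the 25th and 2.56 at the 75th percentile. IRF1 exceeded 61.7% of these genes, IRF2BP2 90.9%, IRF7 44.2% and IRF9 23.0%. Genes at the limit of 9 windows, 12.8% of them and IRF2BP2 included, are placed by their listed windows only. By the mean over windows, none of the members stood high: IRF2BP2 exceeded 29.0% of genes, IRF7 and IRF9 24.9% each, IRF1 21.0% and IRF3 7.58%. The median over the 21 windows of the members was 1.69, and that over all 24754 coding windows was 1.83. IRF1 therefore lay above the middle of coding genes by its strongest window and well below it by its mean.

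**Figure D3:**
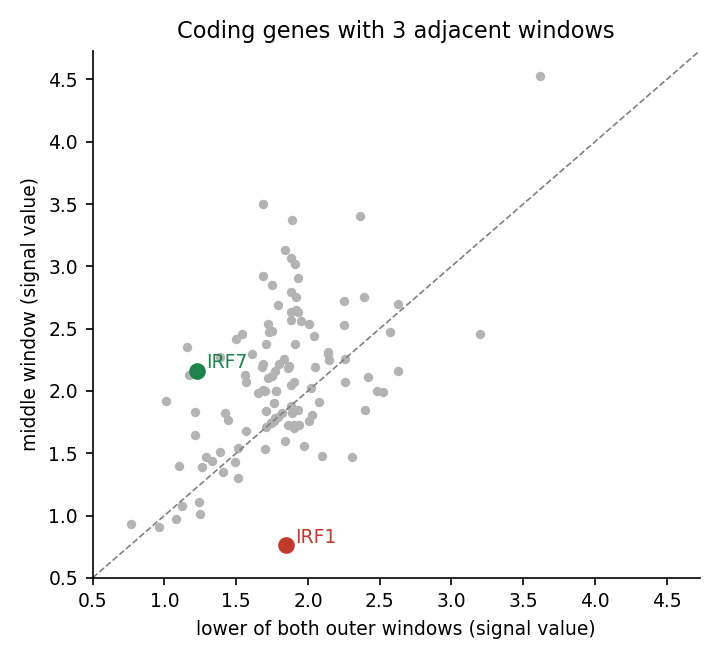
Middle window (vertical axis) against the lower of both outer windows (horizontal axis) for the 116 coding genes whose 3 listed windows are adjacent; both axes are signal values of unstated scale, each point is 1 gene and the dashed line marks equality. IRF1 lies below all other points relative to the line, with 0.76 in the middle and 1.85 as its lower outer value, and IRF7 lies above the line.

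The shape of the IRF1 region was examined after its values had been seen. The middle window lay 1.09 below the lower of both outer windows. Among the 116 coding genes whose 3 windows form 1 region, the middle window was the lowest in 32 (27.6%) and the highest in 36 (31.0%). A drop of at least 1.09 occurred in 1 of them (0.862%), IRF1 itself. Over all coding genes, 3040 runs of 3 adjacent windows were found in 1517 genes, and 3 of these runs (0.0987%) had a drop that large. They lay in IRF1, in EGFR (1.13) and in PRSS23 (1.19), and EGFR and PRSS23 are named because of these values. A weak middle window that misses the q-value limit is not listed, so deeper drops elsewhere would appear as 2 regions and are not counted.

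The genes with a pattern most like that of IRF1, by the distance between the 3 signal values in transcript order over these 116 genes, were CLDN23 with 1.93, 1.30 and 1.51, TIMM23 with 2.61, 0.97 and 1.08, and NOL7 with 2.36, 1.47 and 2.31. Their distances were 0.78, 0.83 and 0.85, so none was close.

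**Figure D4:**
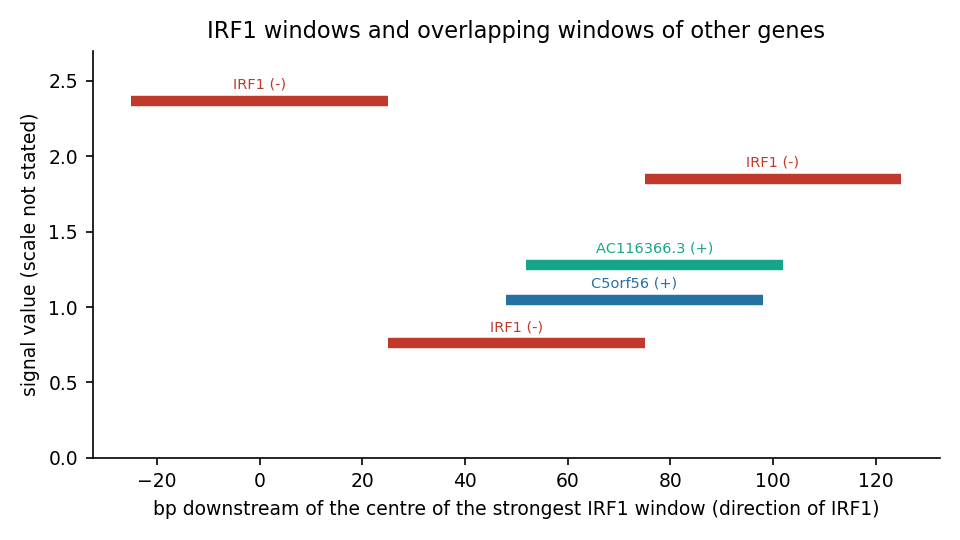
Listed windows at the IRF1 region as bars, by distance in bp from the centre of the strongest IRF1 window in the direction of IRF1 transcription (horizontal axis) and signal value of unstated scale (vertical axis); the sign in brackets is the strand. The plus-strand windows of C5orf56 (1.05) and AC116366.3 (1.28) overlap the second and the third IRF1 window and leave the first, at 2.37, free.

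Both weaker IRF1 windows, the second and the third, were also covered from the opposite strand. C5orf56 (ENSG00000197536), a long non-coding RNA gene, had a plus-strand window at 132486987 to 132487036 with a signal value of 1.05. AC116366.3 (ENSG00000283782), annotated as protein-coding, had one at 132486983 to 132487032 with 1.28. These windows share 46 bp with each other, so they are not 2 separate measurements. Each overlapped both the IRF1 window of 0.76 and that of 1.85, by 23 or 27 bp, and no listed window of another gene overlapped the strongest IRF1 window. Windows of coding genes rarely had an opposite-strand partner, with 0.630% of them overlapping one. Among the members, 2 of 3 IRF1 windows and 1 of 18 others did.

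The libraries were made with a kit that keeps strand, but whether the counting used strand is not stated. If it did not, reads of IRF1 and of its opposite-strand neighbours cannot be told apart in the second and the third window. The first IRF1 window, the strongest, had no listed partner on the other strand. The remaining 7 windows of C5orf56 lay at least 16523 bp away from the IRF1 region and had signal values from 1.82 to 2.90, all above its window at IRF1. In the RefSeq annotation this gene is named CARINH and ends 5564 bp short of the 3′ end of IRF1, so its window at IRF1 rests on the gene model behind the table.

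Overlaps touched 2 further windows of the members. The IRF2BP2 window of 2.01 shared 39 bp with the only window of AL160408.2 (ENSG00000228830), a long non-coding RNA gene on the plus strand, whose signal value was 2.13. The strongest IRF9 window, 1.92, shared 33 bp with a window of AL136295.5 (ENSG00000259529) on the same strand, with 1.58. This is 1 of 21 windows of the members with a same-strand overlap, next to 10.0% of coding windows, and reads there could count for either gene. IRF3 and IRF7 had no such overlap. Without all overlapped windows, IRF1 had 1 window, IRF9 2 and IRF2BP2 8, and each listed member was still listed.

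**Figure D5:**
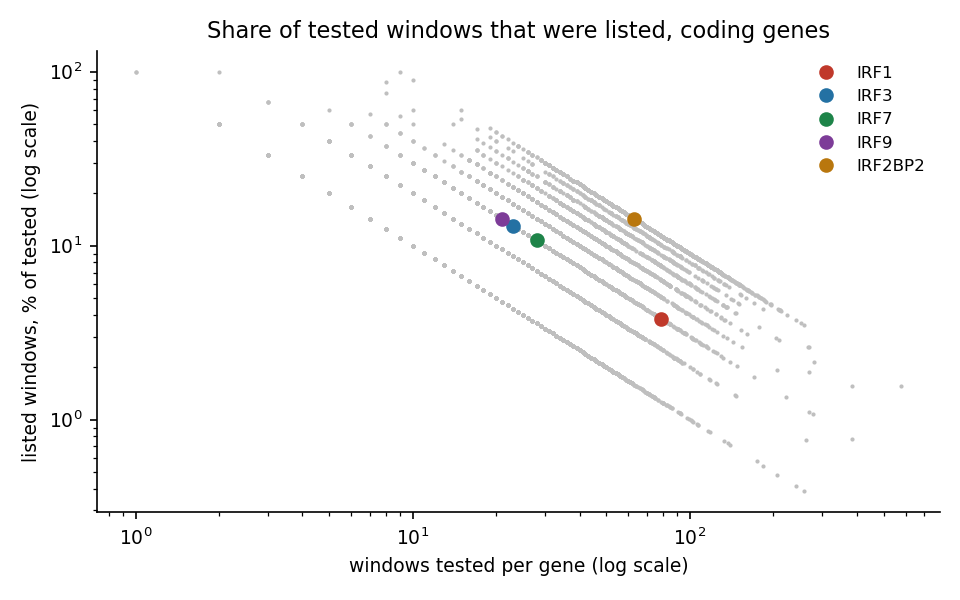
Listed windows as a percentage of tested windows (vertical axis, log scale) against tested windows per gene (horizontal axis, log scale) for coding genes; grey points are genes, lines of points share a listed count, and coloured points are the 5 listed members. IRF1 has more tested windows (79) and a lower share (3.80%) than IRF3, IRF7 and IRF9, and the point for IRF2BP2 rests on a lower bound of 63 tested windows.

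The number of windows tested in each gene, computed from q and p, was larger for IRF1 than for the other listed IRFs. IRF1 had 79 tested windows, or 3950 bp, against 28 for IRF7, 23 for IRF3 and 21 for IRF9. For IRF2BP2, where the list is incomplete, the number is known only as at least 63, so its place relative to IRF1 is not settled. The median of listed coding genes was 35, and IRF1 exceeded 87.9% of them. With 3 windows each, the share of tested windows that were listed was 3.80% in IRF1, 10.7% in IRF7, 13.0% in IRF3 and 14.3% in IRF9. The median of coding genes was 8.93%. For IRF2BP2 no share is set beside these, because neither its passing nor its tested windows are known in full. The listed windows thus made up a smaller part of what was tested in IRF1 than in IRF3, IRF7 and IRF9, with no replicate error for this comparison. Because q-values are adjusted within each gene, a window of IRF1 also had to reach a smaller p-value to be listed than one of IRF9 at the same position in the order.

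IRF2BP2 has 2 paralogues, IRF2BP1 and IRF2BPL, and both were listed. IRF2BPL (ENSG00000119669) had 9 windows in 5 regions with signal values from 0.97 to 2.41, and IRF2BP1 (ENSG00000170604) had 3 windows in 2 regions from 1.02 to 2.55. Among the listed windows, the strongest of IRF2BP2, 2.97, was the highest of the 3 genes. The positions of the IRF2BPL windows in the order of p-values ran to at least 12, so at least 3 passing windows are not listed there. All 3 genes of this family had a listed peak, as did 4 of the 8 IRFs named above, next to 31.8% of coding genes. With so few genes, no difference is drawn from these counts.

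Genes that act before, after and beside the IRFs were described from 3 lists, chosen by name with earlier results of these data known. The intervals give counting error only. The share of 31.8% counts coding genes whether expressed in these cells or not. Whether the lists differ from that share was not tested. Of 18 genes of upstream signalling, 10 were listed (55.6%, Wilson 95% interval 33.7% to 75.4%), next to 31.8% of coding genes. The IFN-γ receptor chain IFNGR2 had 7 windows with a highest signal value of 2.18, and JAK2, the kinase bound to it, had 9 with 3.34. Their partners IFNGR1 and JAK1 had no row. JAK2 was at the limit of 9 listed windows, so more of its windows may have passed. STAT2, which pairs with IRF9, had 7 windows and a highest value of 1.83, close to the 1.92 of IRF9. The type I receptor chains IFNAR1 and IFNAR2 had no row, nor did TBK1 and IKBKE, the kinases that phosphorylate IRF3 and IRF7. Several adaptors among these 18 genes had rows, with 4 windows in MAVS (highest 2.32), 3 in TRAF3 (2.51), 4 in MYD88 (2.29) and 1 in TICAM1 (1.48). STING1, the adaptor for cytosolic DNA, had no row.

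Of 14 genes induced through IRF1, 10 were listed (71.4%, interval 45.4% to 88.3%), again next to 31.8% of coding genes. The highest signal values were those of CD274, which encodes PD-L1, at 3.39 and of CIITA, the activator of MHC class II genes, at 3.21. The peptide transporter subunit TAP1 had 1 window of 0.91 and its partner TAPBP 1 of 1.57. The immunoproteasome subunit PSMB9 had 9 windows with a highest value of 2.82, and PSMB10 had none. Compared with the strongest IRF1 window (2.37), the median of the strongest windows in this list was 2.50. Of 11 paralogues and partners, 8 were listed (72.7%, interval 43.4% to 90.3%, next to the same 31.8%). The acetyltransferases CREBBP and EP300, coactivators of IRFs, had 9 windows each with highest values of 2.53 and 2.46, and STUB1, a ubiquitin ligase, had 5 with 3.12. SPI1 and BATF, the blood cell partners of IRF4 and IRF8, had no row, and neither did IRF4 and IRF8 themselves. PSMB9, CIITA, CREBBP and EP300 were at the limit of 9 listed windows, so more of their windows may have passed. The lists took no account of expression.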

How the data were processed

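RIP-seq libraries of IP-YTHDF1 and Input (2 each) were described by 1 deposited table of annotated peaks. Per the labels, the submitters' processing notes name STAR 2.7.3a and the build GRCh38; the peak caller and its settings are not given in the sources used here. The authors deposited for each window a signal value and its rank, used here as a score of unstated scale, and a p-value and q-value. No columns per library were present (0 left unused), so libraries were not compared.

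Of 26820 rows, 1 exact repeat was dropped. Starts were converted to count from 1. Windows that touch on a strand were joined into regions. Tested windows per gene were computed as q times position over p, with p-values above 1e-14; in genes at the limit of 9 the largest estimate was taken. On simulated data this was recovered in 100% of 1181 genes with at most 9 passing windows and in 65.6% of 689 genes with more, within 1%. For the share of coding genes, 6368 of 6674 symbols (95.4%) matched RefSeq (GRCh38.p14).

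All members are named, and values are descriptions without tests. Members, lists and the rule for genes like IRF1 were chosen with earlier results of these data known. Alternatives were a q-value of 0.001, a Bonferroni limit, joined windows, signal limits, windows without overlap, and other sets or summaries for the percentile. The scripts ran under Python 3.11.15 with matplotlib 3.10.9, SciPy 1.17.1, NumPy 2.4.6 and pandas 2.3.3.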

Additional observations from a re-analysis of the deposited data

How the results depend on the processing

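No paired analysis was possible because replicates are not separated in the deposited values, and for the same reason no replicate could be left out and no comparison of IP-YTHDF1 with Input was run. Of the 9 members, 5 were listed, and also at a q-value of at most 0.001 and without overlapped windows, and 4 with signal values above the median (without IRF3). A signal value of at least 2, chosen after seeing the data, left 3 (IRF1, IRF7 and IRF2BP2). A Bonferroni limit of 0.05 over the 309999 windows computed as tested in listed genes left 2 (IRF1 and IRF2BP2). Windows tested in genes without a row are not in that number, and counting them would make the limit stricter. IRF1 kept 2 of its 3 windows at the q-value of 0.001, above the median signal and under the Bonferroni limit. It had 1 when touching windows were joined, at a signal value of at least 2, and without overlapped windows. The 18 windows of the other members became 10 regions when joined, and 7 windows at the q-value of 0.001, 5 above the median signal, 4 under the Bonferroni limit, 3 at a signal value of at least 2 and 16 without overlaps. These losses follow from the stricter limits themselves. The strongest IRF1 window exceeded 61.7% of coding genes, 66.7% of the 855 with 3 windows, and 54.9% of the 860 with a number of tested windows within 20% of that of IRF1. By the median over windows IRF1 exceeded 41.4% of genes, and by the mean 21.0%, because 1 of its 3 windows was weak. Besides the signal limit of 2, some other settings were not planned in advance. They were the removal of overlapped windows, the Bonferroni limit for counts of windows, and the percentile among genes with a like number of tested windows. Unknown depth limits what an absent row means.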
